A study of Mus musculus with 4 samples.

Results

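The genes described here encode the parts of the cascade that turns odorant binding into an electrical signal in olfactory sensory neurons (OSNs). They were chosen by name and numbered 10, Gnal, Gnb1, Gng13, Adcy3, Cnga2, Cnga4, Cngb1, Ano2, Pde1c and Pde4a, out of 55511 features in the merged table of UMI counts. A unique molecular identifier (UMI) tags 1 captured transcript, so that amplified copies of it are counted once. Live nucleated cells of the main olfactory epithelium were sorted from 4 male C57BL/6 mice aged 8 weeks and kept at rest, and each mouse gave 1 droplet library read at the 3′ end of transcripts. No transgene and no treatment is named for these animals, which formed a single group. A level is the number of UMIs of a gene per 10000 UMIs of the same cells, summed within a mouse, and the mouse is the replicate (n = 4). The deposited annotation placed 15859 cells in 10 types, of which mature OSNs (mOSN) held 10519. Of these, 9791 had a receptor identity, the 1 receptor gene that stood above the others in that neuron. They formed 960 populations, and 134 populations had 20 or more neurons (median 27, highest 83), 4143 neurons in all.

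In the cilia of an OSN, an odorant receptor activates a heterotrimeric G protein whose α subunit, Gαolf, is the product of Gnal, with Gnb1 and Gng13 encoding β and γ subunits. The G protein activates adenylyl cyclase III (Adcy3), and the cyclic AMP it makes opens a cyclic nucleotide-gated cation channel built from Cnga2, the subunit that can form a channel alone, and the modulatory subunits Cnga4 and Cngb1. Calcium that enters opens the chloride channel Ano2, which adds to the depolarisation because these neurons hold chloride at a high concentration. Phosphodiesterases end the signal by breaking down cyclic AMP, with Pde1c, activated by calcium and calmodulin, in the cilia and Pde4a outside them.

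The 4 libraries held 4746 to 6003 cell barcodes and 23157467 to 32382702 UMIs, and any pair of libraries had 4 to 14 barcodes in common. The median mature OSN carried 4004 to 6591 UMIs, depending on the mouse. The marker genes Omp, Stoml3 and Rtp1 of mature OSNs summed to 159 UMIs per 10000 in mOSN (range over mice 152.7 to 163.1), to 106 in iOSN2, the later immature stage, and to 13.9 in iOSN1, the earlier one. In the other types this sum ran from 1.39 in Mv2 to 8.91 in Mv1, both microvillar types. The types had been built from these same cells and genes, and Cnga2 and Gng13 had served with Omp to name the mature cluster. The study also showed Adcy3 beside Omp as a marker of mature OSNs. Levels by cell type are therefore given as a description with no test.

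The members lie on 9 chromosomes, with Cnga2 on the X chromosome and Ano2 and Pde1c both on chromosome 6. Apart from Gnal, the 9 members had 17 promoter windows in RefSeq (GRCm38.p6), each with 250 bases before an annotated start and 50 after it. The letters CCCNNGGG, the core of the site of Ebf factors, which are known from promoters of olfactory genes, were searched on both strands, which are the same for this motif because it is its own reverse complement. They stood in 6 windows of 6 members, Gng13, Cnga2, Cnga4, Cngb1, Ano2 and Pde4a, against 13.7% of all 32851 windows and 15.4% of 27025 genes with a window. The share of genes was not matched for the number of windows per gene. Gnb1, Adcy3 and Pde1c had no match in their windows. The homeodomain letters TAATTA, also their own reverse complement, stood in 0 of the 17 windows, against 5.29% of all windows. The 250 bases before the start are shown for the 5 members whose match lay there, 5′ to 3′ on the strand of the gene, with every match in capitals. In Cnga4 the first base of the match lay 24 bases after the start.
Gng13, chr17:25716922-25717171, plus strand: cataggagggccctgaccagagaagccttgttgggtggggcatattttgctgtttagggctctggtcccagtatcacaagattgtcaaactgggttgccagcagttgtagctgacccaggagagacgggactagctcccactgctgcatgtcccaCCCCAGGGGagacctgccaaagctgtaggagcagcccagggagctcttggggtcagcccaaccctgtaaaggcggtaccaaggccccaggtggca
Cnga2, chrX:71991599-71991848, plus strand: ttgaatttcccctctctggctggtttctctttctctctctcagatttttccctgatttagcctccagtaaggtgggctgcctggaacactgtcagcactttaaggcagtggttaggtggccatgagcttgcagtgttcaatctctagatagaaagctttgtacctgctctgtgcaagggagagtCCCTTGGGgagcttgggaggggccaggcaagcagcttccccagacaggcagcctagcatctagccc
Cngb1, chr8:95306586-95306835, minus strand: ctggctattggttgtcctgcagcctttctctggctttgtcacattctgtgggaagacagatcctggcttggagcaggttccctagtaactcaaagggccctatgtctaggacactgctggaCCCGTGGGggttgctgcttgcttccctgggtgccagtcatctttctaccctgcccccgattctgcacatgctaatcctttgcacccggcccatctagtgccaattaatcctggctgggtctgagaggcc
Ano2, alternative start, chr6:125710938-125711187, plus strand: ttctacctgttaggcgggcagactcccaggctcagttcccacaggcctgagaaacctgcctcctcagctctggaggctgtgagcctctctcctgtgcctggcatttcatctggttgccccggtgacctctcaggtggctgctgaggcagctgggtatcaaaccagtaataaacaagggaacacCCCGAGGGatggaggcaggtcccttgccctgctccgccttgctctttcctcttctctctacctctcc
Pde4a, alternative start, chr9:21183851-21184100, plus strand: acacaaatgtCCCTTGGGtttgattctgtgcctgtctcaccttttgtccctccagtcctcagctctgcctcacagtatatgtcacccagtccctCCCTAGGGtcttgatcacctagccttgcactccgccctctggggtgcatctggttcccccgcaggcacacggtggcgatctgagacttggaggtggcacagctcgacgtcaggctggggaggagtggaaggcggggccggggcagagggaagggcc
The match began 129 bases before the start in Cngb1, 67 in Ano2 and 66 in Cnga2. Gng13 had 2 overlapping matches at 95 and 94 bases before the start, and Pde4a had 2 separate ones at 240 and 156. In Ano2 and Pde4a the window with the match belonged to a start inside the gene, and UMIs at the 3′ end do not show which start was used. A match is a description of the letters and not a bound site.

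Levels in mature OSNs are given gene by gene and not compared between genes, since counts of 3′ ends also depend on how well each end is captured. Gnal, which encodes the α subunit, gave 25.3, 28.2, 26.8 and 28.4 UMIs per 10000 in mature OSNs of mice 1 to 4. The γ subunit gene Gng13 gave 92.8, 88.7, 91.9 and 85.3. The β subunit gene Gnb1, which many cell types use, gave 44.4, 47.8, 42.9 and 44.5. All 3 subunit genes thus varied little between mice, with an SD of 1.44 around 27.2 for Gnal, 3.40 around 89.7 for Gng13 and 2.05 around 44.9 for Gnb1.

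The cyclase gene Adcy3 stood at 9.73, 11.7, 10.8 and 11.7 UMIs per 10000 in the mature OSNs of the 4 mice. Among the channel subunit genes, Cnga2 gave 6.91, 7.37, 7.24 and 7.44. Cnga4 gave 5.003, 4.999, 4.87 and 5.08, and Cngb1 gave 2.45, 2.62, 2.58 and 2.75. The SD over mice was 0.0866 for Cnga4, the smallest of the 10 relative to its mean. The chloride channel gene Ano2 gave 2.47, 3.07, 3.29 and 3.00, Pde1c gave 3.51, 4.28, 4.79 and 4.29, and Pde4a gave 4.73, 5.88, 5.55 and 5.65. Mouse 1 was the lowest of the 4 for all members other than Gng13, Gnb1 and Cnga4. Adcy3 was detected with 1 or more UMIs in 96.7% ± 1.13 (SD, n = 4) of mature OSNs and Pde1c in 79.3% ± 5.86, or in 66.0% ± 4.19 for Pde1c when each cell was thinned to 3000 UMIs, which left out 1572 of the 10519 neurons.

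**Figure D1:**
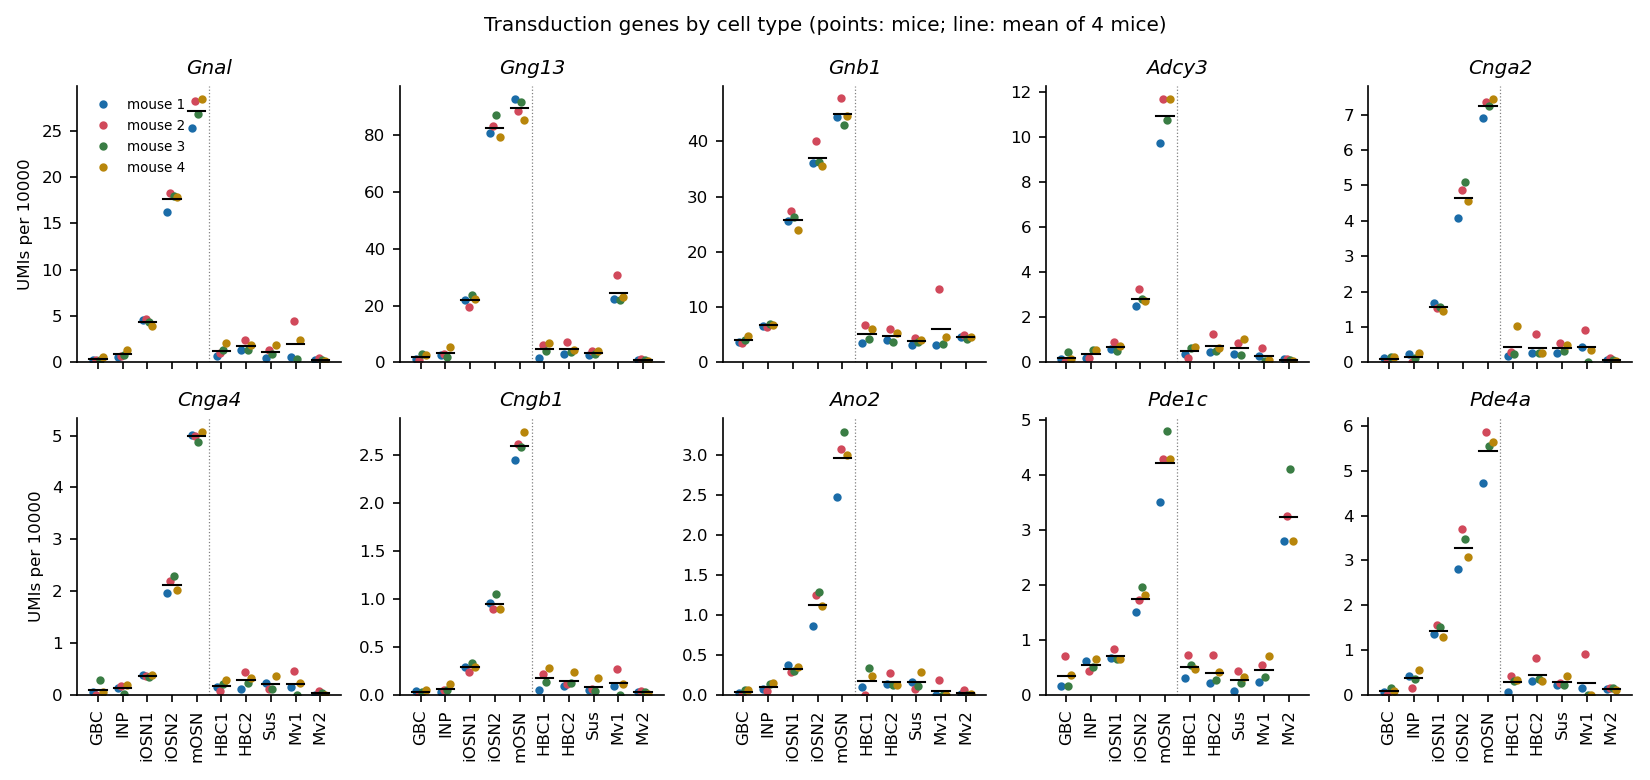
Level of each of the 10 genes (y axis, UMIs per 10000, from 0) in 10 cell types, with the neuronal lineage from globose basal cells (GBC) to mature OSNs left of the dotted line and the other types right of it. Points are the 4 mice and bars their mean. Every gene has its highest mean in mOSN, and outside the lineage Pde1c in Mv2, at a mean of 3.24, and Gng13 in Mv1, at 24.6, stand out.

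The members did not reach their mature level together. Each level was therefore set against the level of the same gene in mature OSNs of the same mouse. In iOSN2, Gng13 already stood at 92.3% ± 3.52 of its mature level (SD, n = 4) and Gnb1 at 82.5% ± 2.12. Gnal followed at 64.8% ± 1.88, Cnga2 at 64.2% ± 5.09 and Pde4a at 59.9% ± 3.97. A lower group held Cnga4 at 42.6% ± 3.71, Pde1c at 41.6% ± 1.14, Ano2 at 37.9% ± 2.48 and Cngb1 at 36.6% ± 3.83. Adcy3 came last at 25.8% ± 1.97, from 23.3% to 28.1% over the mice, and no mouse value of another member fell as low. In that order, the ranges over mice of neighbours overlapped for Gnal with Cnga2, for Cnga2 with Pde4a and among Cnga4, Pde1c, Ano2 and Cngb1. No order is read between direct neighbours among these. Within each mouse, Cnga4 and Pde1c both stood above Cngb1. The subunit genes of the channel were thus apart at this stage, with Cnga2 between 59.1% and 70.4% and the modulatory subunits Cnga4 and Cngb1 between 32.7% and 47.1%.

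In iOSN1 the order was led by Gnb1 at 57.6% ± 3.03 of its mature level. Pde4a stood at 26.4% ± 2.60, Gng13 at 24.5% ± 1.81 and Cnga2 at 21.6% ± 1.97, with ranges that overlapped. Pde1c at 16.8% ± 2.79 and Gnal at 16.2% ± 1.71 overlapped too, as did Ano2 at 11.4% ± 2.82 and Cngb1 at 11.1% ± 1.59. Cnga4 at 7.41% ± 0.159 and Adcy3 at 6.27% ± 1.24 were the lowest pair. Between iOSN1 and iOSN2 Gng13 went from 21.9 ± 1.67 to 82.7 ± 3.46 UMIs per 10000, whereas from iOSN2 to mOSN it went only to 89.7 ± 3.40, with mice that overlapped. Adcy3 went from 0.693 ± 0.178 in iOSN1 to 2.83 ± 0.329 in iOSN2 and 10.97 ± 0.936 in mOSN. The ratio of means over these steps was 3.77 and then 1.084 for Gng13, and 4.085 and then 3.875 for Adcy3.

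**Figure D2:**
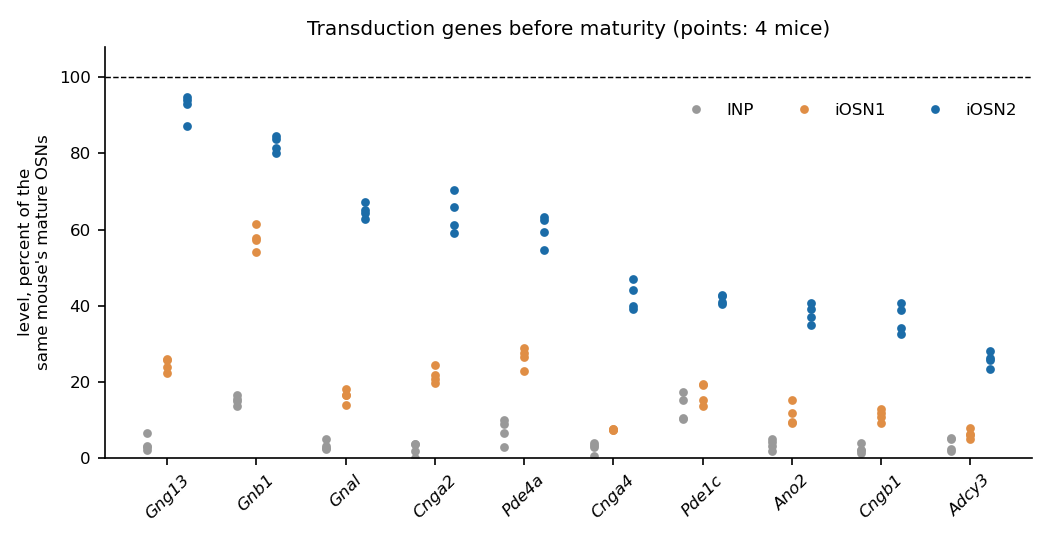
Level of each gene in immediate neuronal precursors (INP), iOSN1 and iOSN2 as a percent of the level in mature OSNs of the same mouse (y axis, from 0, dashed line at 100%). Points are the 4 mice. Genes are ordered by their iOSN2 value, from 92.3% for Gng13 to 25.8% for Adcy3, and Gnb1 leads in iOSN1 at 57.6%.

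Counted by steps of the lineage, 10 of 10 members were higher in iOSN2 than in iOSN1 with no overlap between the mice, against 18.7% of 9983 non-receptor genes with a mean level of 0.1 UMIs per 10000 or more over types and mice. From iOSN2 to mOSN, 9 members were higher without overlap and Gng13 overlapped, against 15.7% of genes. From INP to iOSN1, 8 were higher, and Adcy3 and Pde1c overlapped, against 26% of genes. From GBC to INP only Gnb1 and Pde4a were higher without overlap, against 16.4% of genes, and 8 members overlapped. No member was lower without overlap at any of the 4 steps. These shares describe clusters made from the same genes and are not a test.

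Close relatives of 3 members, Gnas, Gng8 and Gnb2 from a list of other transduction genes, were lower in mature OSNs than in precursors. Not all relatives on that list were. Ano6 stood at 0.0175 ± 0.0245 UMIs per 10000 in INP and higher, at 0.0970 ± 0.0226, in mOSN. For Ano10, Pde4d and Pde10a the mice of these types overlapped. Gnas, which encodes Gαs, the relative of Gαolf that couples receptors to adenylyl cyclase in most other cells, stood at 14.5 UMIs per 10000 in INP (13.6 to 15.4 over mice), at 2.10 in iOSN1, at 0.360 in iOSN2 and at 0.0442 in mOSN. Gng8, the γ subunit gene of immature OSNs, stood at 12.3 in INP and 12.3 in iOSN1, and at 1.23 in iOSN2 and 0.0307 in mOSN. The β subunit gene Gnb2 went from 3.00 in INP to 0.505 in iOSN1 and 0.0137 in mOSN. The mice did not overlap between INP and mOSN for Gnas, Gng8 or Gnb2, a separation whose share over all genes was not counted. In GBC, before INP, Gnas stood at 9.22 ± 0.463 and Gng8 at 0.777 ± 0.372, both lower than in INP without overlap, and Gnb2 stood at 4.67 ± 0.584, with mice that overlapped those of INP. Over the same stages Gnal stood at 0.867 ± 0.348 in INP and 27.2 ± 1.44 in mOSN, and Gng13 at 3.19 ± 1.65 and 89.7 ± 3.40. In INP, Gnal and Gng13 were at 3.2% ± 1.1 and 3.6% ± 2.0 of their mature levels, and Omp at 2.6% ± 1.5. Shares this near that of Omp, a marker of mature OSNs, are not read as expression in INP. Of the paralogs of the channel and of the cyclase, Cnga1, Cnga3 and Cngb3 had 0 UMIs in the mature OSNs of every mouse and Adcy2 had 0 in 3 of 4 mice. Adcy6 had at most 0.000796 UMIs per 10000 there, whereas Adcy5 (0.00238 to 0.00637) and Adcy9 (0.00654 to 0.0231) had UMIs in every mouse. Ric8b, a chaperone for Gαolf, stood at 2.96 ± 0.157 in iOSN2 and 7.35 ± 0.249 in mOSN.

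Outside the neuronal lineage, Pde1c had a level of its own in Mv2, the microvillar type with the markers of ionocytes. Pde1c gave 2.80, 3.26, 4.10 and 2.80 UMIs per 10000 in Mv2 cells of mice 1 to 4, which was 76.7% ± 8.54 of its level in mature OSNs (SD, n = 4). It had a UMI in 74.5% ± 11.5 of Mv2 cells, or 59.6% ± 7.81 after thinning to 3000 UMIs, against 5.90% ± 3.21 and 3.48% ± 1.64 in sustentacular cells (Sus), the supporting cells of the epithelium, which had the lowest share of all types. The other types outside the lineage, which were the horizontal basal cells HBC1 and HBC2 and the microvillar type Mv1, had shares of 17.5% ± 9.96, 11.3% ± 1.13 and 13.9% ± 7.09, or 12.5% ± 5.72, 4.90% ± 4.34 and 11.6% ± 11.8 after thinning. The median Mv2 cell held 5081 UMIs and the median Sus cell 5587. Every mouse had Pde1c higher in Mv2 than in iOSN2, where the highest mouse stood at 1.95. The mature OSN markers Omp, Stoml3 and Rtp1 summed to only 0.932 to 2.06 UMIs per 10000 in Mv2. Over the 10 members, the Mv2 level ran from 0.591% to 76.7% of the mature level with a median of 1.02%, and after Pde1c the next was Gnb1 at 10.2% ± 0.248. The ionocyte markers Ascl3, Cftr, Foxi1 and Coch summed to 188.2 to 207.1 in Mv2 and to 0.293 to 0.329 in mOSN, and of the chemosensory markers Pou2f3 and Chat had 0 UMIs in Mv2.

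Gng13 was the other exception, in Mv1, the microvillar type with the chemosensory markers Trpm5, Pou2f3, Avil, Plcb2 and Chat. It gave 22.4, 30.8, 22.2 and 23.0 UMIs per 10000 in Mv1 of mice 1 to 4, or 27.5% ± 4.99 of its mature level. A UMI of Gng13 was found in 98.6% ± 1.84 of the 124 Mv1 cells, against 18.9% ± 4.02 of Mv2 cells and 27.6% ± 6.55 of Sus cells, and in 96.9% ± 3.64, 12.7% ± 3.09 and 17.4% ± 3.29 after thinning to 3000 UMIs, which left out 47 of the Mv1 cells. The 5 chemosensory markers summed to 13.2 to 19.3 in Mv1, to at most 0.00973 in Mv2 and to at most 0.0855 in mOSN. The median Mv1 cell held 3353 UMIs. Mouse 2 was high in Mv1 for several members, with Gnb1 at 13.3 against 3.15 to 4.63 in the other mice, and there the mature OSN markers summed to 21.8 against 0.581 to 8.54. Gng13 was also highest in mouse 2, and the part of these markers in the Gnb1 and Gng13 values was not tested.

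In HBC1, HBC2 and Sus, the 10 members stood at 3.12% to 12.0% of their mature level as means over mice. Omp stood there at 3.21, 4.24 and 3.54 UMIs per 10000 in HBC1, HBC2 and Sus, against 72.1 in mOSN. Shares near that of Omp, a marker of mature OSNs, are not read as expression in these types. Gnb1 stood at 3.81 ± 0.592 UMIs per 10000 in Sus and 4.03 ± 0.539 in GBC, and Pde1c at 11.97% ± 3.46 of its mature level in HBC1.

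Among mature OSNs, the deposited clusters made without receptor genes split the neurons into 5 ventral and 5 dorsal groups named after Dlg2, Calb2, Cd36, Cd55 or none of them. These levels are again a description, since the members were among the genes clustered. Cnga2 stood at 9.19 ± 0.546 UMIs per 10000 in the ventral Calb2+ neurons (8.65 to 9.85 over mice) and at 3.97 ± 0.142 in the ventral Cd36+ neurons (3.79 to 4.13). The dorsal Calb2+ and Cd36+ neurons stood at 7.29 ± 0.181 and 4.10 ± 0.130 in the same order. Gnal, with 31.4 ± 2.06 and 18.5 ± 1.20, and Gng13, with 106 ± 5.23 and 76.4 ± 4.32, had the same order between the ventral Calb2+ and Cd36+ neurons, with no overlap between mice. Adcy3 was at 12.9 ± 1.51 and 6.80 ± 0.698. Ano2 had its highest level in the ventral cluster without a named marker, 3.53 ± 0.340, and its lowest in ventral Cd36+ neurons, 1.25 ± 0.280.

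Pde1c had another order over these clusters. It was highest in ventral Dlg2+ neurons, at 5.06 ± 0.486 UMIs per 10000, next to 4.93 ± 0.700 in the ventral cluster without a named marker, and these overlapped. Its lowest values were 2.28 ± 0.290 in dorsal Calb2+ neurons and 2.64 ± 0.410 in ventral Cd55+ neurons, with 2.70 ± 0.285 in ventral Calb2+ neurons, where Cnga2, Cnga4, Gnal and Gng13 had their highest means. Cnga4 stood there at 6.55 ± 0.671, against 3.64 ± 0.228 in ventral Dlg2+ neurons. Pde4a, the other phosphodiesterase gene, was at 6.14 ± 0.701 in ventral Calb2+ neurons and 4.57 ± 0.451 in ventral Dlg2+ neurons. Of the 10 members, 7 were higher in ventral than in dorsal neurons of every mouse (Gng13, Adcy3, Cnga2, Cngb1, Ano2, Pde1c and Pde4a), as were 28.1% of 8319 non-receptor genes with a mean of 0.1 UMIs per 10000 or more. Gnal and Gnb1 were higher in dorsal neurons of every mouse, as were 16.3% of these genes, and Cnga4 had no single direction. All 4 ventral values lay above all 4 dorsal values for 11.4% of these genes, and all below for 6.56%. Of the members, the mice of the sides did not overlap for Cnga2 (6.49 to 6.81 in dorsal and 7.10 to 7.76 in ventral neurons), Cngb1 (2.13 to 2.45 and 2.60 to 2.88) and Pde4a. The phosphodiesterase genes had means of 4.495 ± 0.578 and 3.52 ± 0.473 for Pde1c in ventral and dorsal neurons and of 5.73 ± 0.524 and 4.46 ± 0.391 for Pde4a. The other way, Gnal had 26.9 ± 1.52 in ventral and 27.4 ± 1.60 in dorsal neurons and Gnb1 had 44.7 ± 2.19 and 45.3 ± 1.79, with mice that overlapped. Cnga4, with 4.999 ± 0.0724 and 5.04 ± 0.153, overlapped too.

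Receptor identity had been assigned from receptor genes alone, so levels between receptor populations could be tested. UMIs were summed for each mouse and population, giving 499 sums from 4083 neurons of the 134 populations, and all populations were compared in 1 fit with the mouse as a block (edgeR quasi-likelihood test, Benjamini-Hochberg adjusted p under 0.05, receptor genes left out). All 10 members passed the filter and all 10 were called, against 25.5% of the 7887 genes tested (2012 genes). With a stricter filter on low counts, the 10 members were called against 50.4% of 2494 genes. Their median F was 5.60, against 1.11 over all genes. The F statistic was highest for Pde4a, at 7.86 (adjusted p = 1.6e-78, rank 72 of all genes), followed by Pde1c at 7.33, Ano2 at 6.94, Cnga2 at 6.58 and Adcy3 at 6.29 (adjusted p = 6.23e-61, rank 105). Gnal at 4.91, Cnga4 at 4.27, Gng13 at 3.96 and Cngb1 at 2.51 (adjusted p = 9.47e-14, rank 455) came next. Gnb1 was last, at 1.58 with an adjusted p of 0.000803 and rank 1134, and without mouse 4 it had an F of 0.996 and an adjusted p of 0.806. The other 9 members were called without any one of the mice. Since the F statistic also depends on how many UMIs a gene has, its order is not an order of effect sizes.

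The spread of levels over the 134 populations was described in a pair of ways. The ratio of the 90th to the 10th percentile of the population levels was 3.18 for Pde1c (6.75 against 2.12 UMIs per 10000), 3.08 for Ano2 (4.36 against 1.42) and 2.62 for Pde4a (8.00 against 3.06). The channel subunits Cnga2, Cnga4 and Cngb1 had ratios of 2.31, 2.17 and 2.03, and Adcy3 had 2.17. The G protein genes varied least, with 1.86 for Gnal, 1.504 for Gng13 and 1.29 for Gnb1. Part of this spread is counting error, which weighs more for the genes with few UMIs. The coefficient of variation that mice shared, from the covariance of population levels between mice, put Ano2 first at 48.75% and Pde4a next at 43.8%, ahead of Pde1c at 39.25%. It was 28.2% for Cnga2, 26.9% for Adcy3, 24.85% for Cnga4, 21.1% for Cngb1, 20.7% for Gnal, 15.3% for Gng13 and 8.46% for Gnb1, with a median of 11.7% over 3520 non-receptor genes at 0.5 UMIs per 10000 or more. The order of the populations was also compared between mice, which share no neurons. Spearman's rho of a member's level between 2 mice, averaged over the 6 pairs of mice with 105 to 126 populations each, was 0.641 for Gng13, 0.621 for Gnal, 0.604 for Pde1c, 0.594 for Cnga2, 0.544 for Adcy3, 0.530 for Pde4a, 0.520 for Ano2, 0.458 for Cnga4, 0.376 for Gnb1 and 0.225 for Cngb1. The median over the members was 0.537, and over the same 3520 genes it was 0.0561. These correlations are a description, since the populations of a mouse share its library. Over the 134 populations, rho between a member's level and the median UMI count per neuron ran from -0.158 for Gnal to 0.220 for Gng13, and with the level of the population's own receptor from -0.150 for Pde1c to 0.130 for Gnal.

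**Figure D3:**
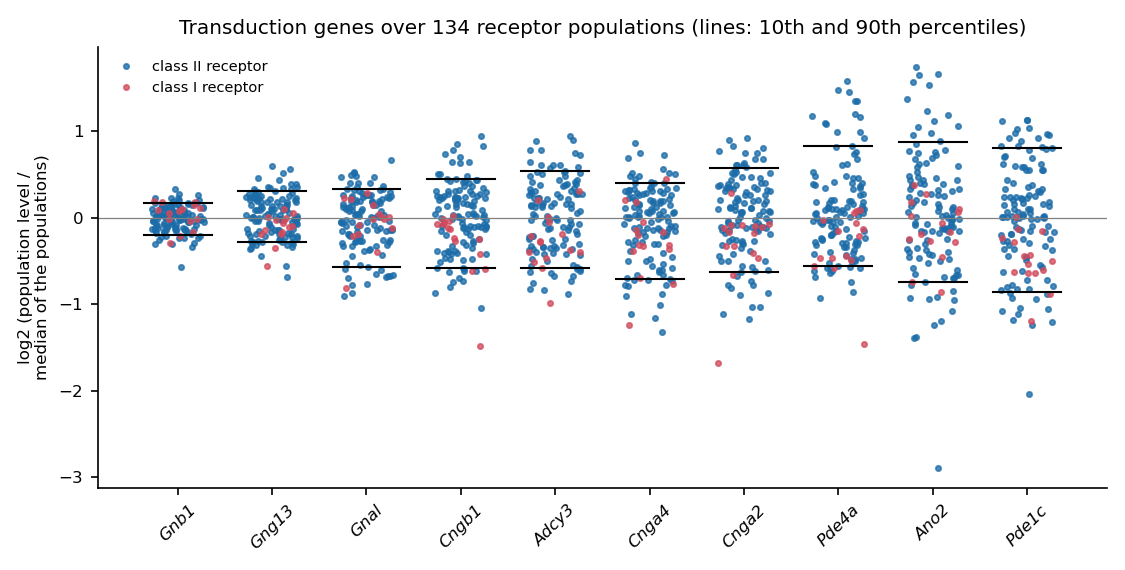
Level of each gene in each of 134 receptor populations, summed over the 4 mice, as the log2 ratio to the median population (y axis). Points are populations, 119 with a class II receptor and 15 with a class I receptor, and lines mark the 10th and 90th percentiles. The lines are 1.29-fold apart for Gnb1 and 3.18-fold apart for Pde1c.

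In 42 populations each mouse contributed 5 or more neurons, so each mouse gives a level of its own. The population at the top of several members was Olfr536, with 44 neurons, which was among the 3 highest for 8 members, all but Gnb1 and Cnga4. Its Ano2 level was 7.06, 7.29, 8.22 and 6.91 UMIs per 10000 in mice 1 to 4. The lowest for Ano2 was Olfr1176, with 49 neurons and 1.48, 1.26, 1.09 and 0.449, so that the mice of these populations did not overlap and the means of 7.37 and 1.07 were 6.90-fold apart. Olfr1206 and Olfr1195 were next at the top for Ano2, with means of 5.81 and 5.37, and Olfr1440 and Olfr354 next at the bottom, with 1.078 and 1.22.

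Among these 42 populations, the top one for Pde4a was Olfr1507, with 42 neurons and 11.6, 10.4, 13.7 and 11.1 UMIs per 10000 in the 4 mice. It was followed by Olfr1195 at a mean of 10.3 and Olfr536 at 9.31. Olfr1176 was again the lowest, at 1.92, 2.33, 2.95 and 2.24, and Olfr1440 and Olfr523 came next with means of 2.59 and 2.70. The mean of the highest population was 4.95 times that of the lowest, with no overlap between mice. Pde1c had Olfr1195 at the top, at 5.91, 7.57, 10.2 and 7.32, then Olfr536 at a mean of 7.55 and Olfr720 at 6.29. Its lowest was Olfr672, a class I receptor, at 0.821, 2.36, 1.88 and 1.38, with Olfr827 and Olfr1440 at means of 1.76 and 1.80. Olfr1507 was also the highest for Cnga2, at 13.9, 13.4, 7.76 and 10.7, with Olfr536 at a mean of 10.2 and Olfr6 at 9.92. The lowest for Cnga2 was Olfr731, at 3.96, 2.44, 2.96 and 2.63, and Olfr354 and Olfr1440 followed with means of 3.19 and 3.25. Over all 134 populations, with UMIs summed over mice, other populations stood at the ends. Pde4a was highest in Olfr309 at 13.45 and lowest in Olfr553 at 1.63. Cnga2 was highest in Olfr60 at 12.84 and lowest in Olfr553 at 2.12.

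Among the 42 populations, the same ones recurred over the members. Olfr1507 was among the 3 highest of 7 members, including Adcy3, where it stood at 17.5 ± 2.33 UMIs per 10000, and Cnga4, where it stood at 9.41 ± 1.51. Olfr1195 was among the 3 highest of 4 members. At the low end, Olfr354 was among the 3 lowest of 5 members, Olfr1440 and Olfr731 of 4 each, and Olfr1176 and Olfr523 of 3 each. High and low populations shared clusters. The ventral cluster without a named marker was the most frequent one of the high Olfr536 and Olfr1195 and also of the low Olfr731 and Olfr1222. Olfr1507 was most frequent in ventral Calb2+ neurons, the low Olfr354, Olfr1440, Olfr523 and Olfr827 in ventral Cd55+ neurons, and the low Olfr1176 in the dorsal cluster without a named marker. For the G protein genes, Gnal ran from 14.0 ± 1.48 in Olfr731 to 34.7 ± 2.13 in Olfr1507, and Gng13 from 64.5 ± 3.37 in Olfr419 to 129 ± 9.01 in Olfr536. Gnb1 spanned 29.5 ± 4.40 in Olfr731 to 52.0 ± 7.45 in Olfr1195, a ratio of means of 1.76. These populations were picked from the ends of the range, so their distance is a description.

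**Figure D4:**
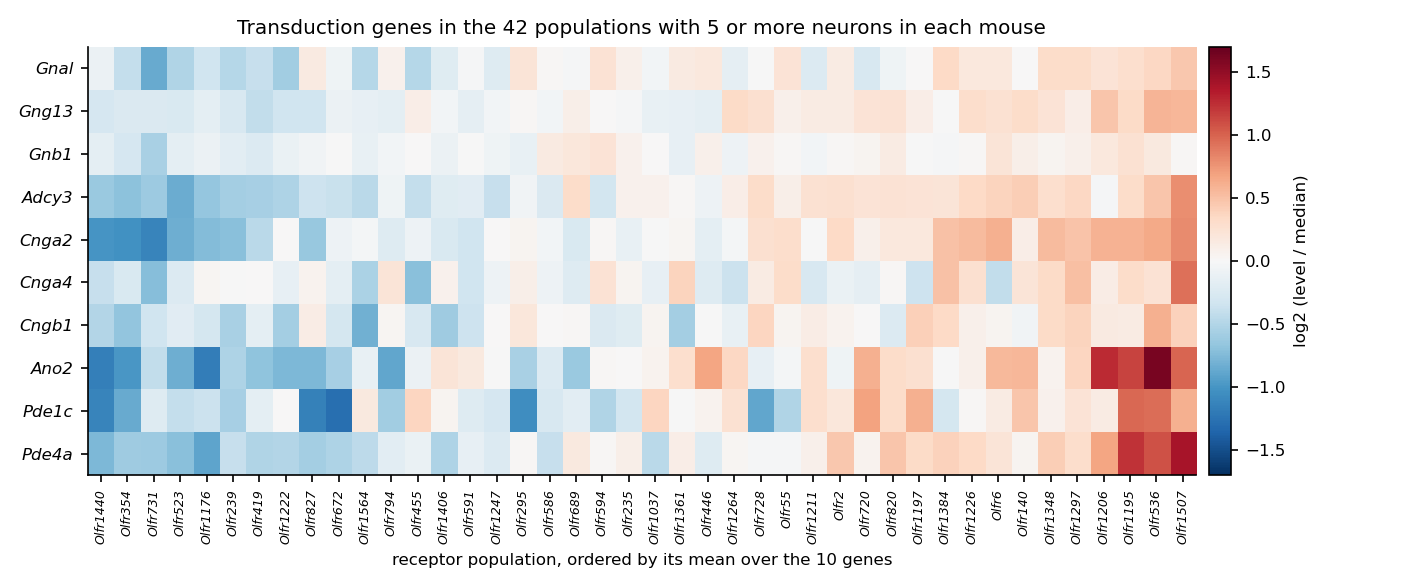
The 42 receptor populations with 5 or more neurons in each of the 4 mice (x axis, ordered by their mean over the 10 genes) and the 10 genes (y axis), with colour showing the log2 ratio of the level to the median of the 42 populations. Olfr1507 and Olfr536 at the right are high for most genes and Olfr1440 and Olfr354 at the left are below the median for all 10, while Gnb1 varies least, 1.76-fold between its extremes.

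Over the 134 populations, Spearman's rho between members ran from 0.0369 to 0.815 over 45 pairs, with a median of 0.570 and the highest value for Adcy3 and Cnga2. The 36 pairs without Pde1c had a median of 0.590 and the 9 pairs with it 0.286, down to 0.0369 with Cnga4. In these pairs the levels came from the same neurons and libraries. When 1 gene was taken from one mouse and the other gene from another, the median was 0.376 without Pde1c and 0.307 with it, a smaller gap. Pde1c with Gnal (0.0623), Cnga4 (0.0676) and Cngb1 (0.119) still lay under the lowest pair without Pde1c (0.185). The other pairs with Pde1c ran from 0.196 to 0.428. Genes among those most like a member over the populations were taken for the 4 members with the largest F. Pde4a was followed most closely by Efr3b (rho = 0.733), Tuba4a (0.694) and Omp (0.687), Ano2 by Efr3b (0.684) and Golga7b (0.665), and Cnga2 by Stoml3 (0.780), Mslnl (0.742) and Lrrn1 (0.735). For Pde1c they were Ubl3 (0.791), Kcnmb3 (0.769) and Sorl1 (0.742). No p is given for these values, which share neurons, libraries and depth.

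Of the 33 other transduction genes listed, 12 passed the filter in the test among populations and 9 were called. Over all genes, 25.5% of 7887 were called, and 50.4% of 2494 with the stricter filter on low counts. The largest F among them, and larger than that of any member, was 17.1 for Stoml3, a stomatin family protein of OSN cilia (adjusted p = 5.38e-158). Calm2 followed with 6.49 and Slc12a2, the sodium, potassium and chloride cotransporter that loads OSNs with chloride, with 4.89. Slc24a4, the exchanger that removes calcium from the cilia, Reep1 and Arrb2 were not called.

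Odorant receptors fall into class I, whose genes lie in 1 cluster on chromosome 7, and class II. The 1071 neurons with 1 of 106 class I receptors and the 8641 neurons with 1 of 843 class II receptors were summed for each mouse and compared with the mouse as a block. Of the 10 members, 8 were called and all 8 were lower in class I neurons, against 9.25% of 10413 genes called lower and 10.6% called higher (edgeR quasi-likelihood test). The median log2 difference of class I minus class II was -0.20 over the members and 0.00 over all genes tested. The differences were of modest size, with class I levels from 74.7% to 99.5% of class II levels.

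Pde4a differed most. It stood at 3.62, 4.62, 4.10 and 4.37 UMIs per 10000 in class I neurons of mice 1 to 4 and at 4.86, 6.01, 5.70 and 5.81 in class II neurons, with no overlap. Its log2 difference was -0.37 ± 0.04 (SE), with an adjusted p of 4.23e-20 (edgeR quasi-likelihood test). The SE of each log2 difference between classes was worked back from its F statistic and is not a spread over mice. The channel subunit genes were all lower in class I neurons too. Cngb1 was at 2.01, 2.17, 2.14 and 2.16 in class I and 2.52, 2.71, 2.66 and 2.84 in class II (log2 -0.28 ± 0.05, adjusted p = 1.93e-07). Cnga2 was at 6.10, 6.04, 5.71 and 5.93 against 7.08, 7.497, 7.48 and 7.67 (log2 -0.26 ± 0.03, adjusted p = 1.59e-12). Cnga4, whose gene lies on chromosome 7 like the class I receptors, was at 3.97 to 4.45 against 5.04 to 5.16 (log2 -0.21 ± 0.04, adjusted p = 5.02e-07). For these 3 subunits every class I value was under every class II value, a separation whose share over all genes was not counted.

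Pde1c was at 2.99 to 3.94 UMIs per 10000 in class I and 3.58 to 4.92 in class II neurons, with mice that overlapped between the classes but lower in class I in each mouse (log2 -0.29 ± 0.04, adjusted p = 5.64e-11). Adcy3 (log2 -0.19 ± 0.03) and Ano2 (log2 -0.19 ± 0.04, adjusted p = 0.000495) were of this kind too. Gng13 was 78.6 to 84.7 in class I and 86.1 to 94.7 in class II neurons, without overlap, and its log2 difference was -0.09 ± 0.02 (adjusted p = 0.00141). Gnal and Gnb1 were not called. Gnal had a log2 difference of -0.05 ± 0.03 (adjusted p = 0.159). Gnb1 had 0.05 ± 0.02 (adjusted p = 0.157), and its sign was negative, -0.00576, when sums were scaled by library size only, as are the levels of 44.7 in class I and 44.96 in class II. Without the block on the mouse 3 members were called, Cnga2, Cngb1 and Pde4a, with 861 of 10413 genes (8.27%) called in either direction. The largest adjusted p among the 5 that were lost was 0.639 for Gng13. Class I neurons are known from the dorsal epithelium. Dorsal class II neurons were taken as those of class II receptors whose most frequent cluster was dorsal, whichever cluster each neuron lay in. Against these only, 6 members were called, with 593 of 8512 genes (6.97%) called in that fit. There Gng13 (log2 -0.01, adjusted p = 0.88), Adcy3 (-0.10, 0.0512) and Pde1c (-0.11, 0.169) were not called, whereas Gnal was, at -0.17 (adjusted p = 1.53e-06).

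**Figure D5:**
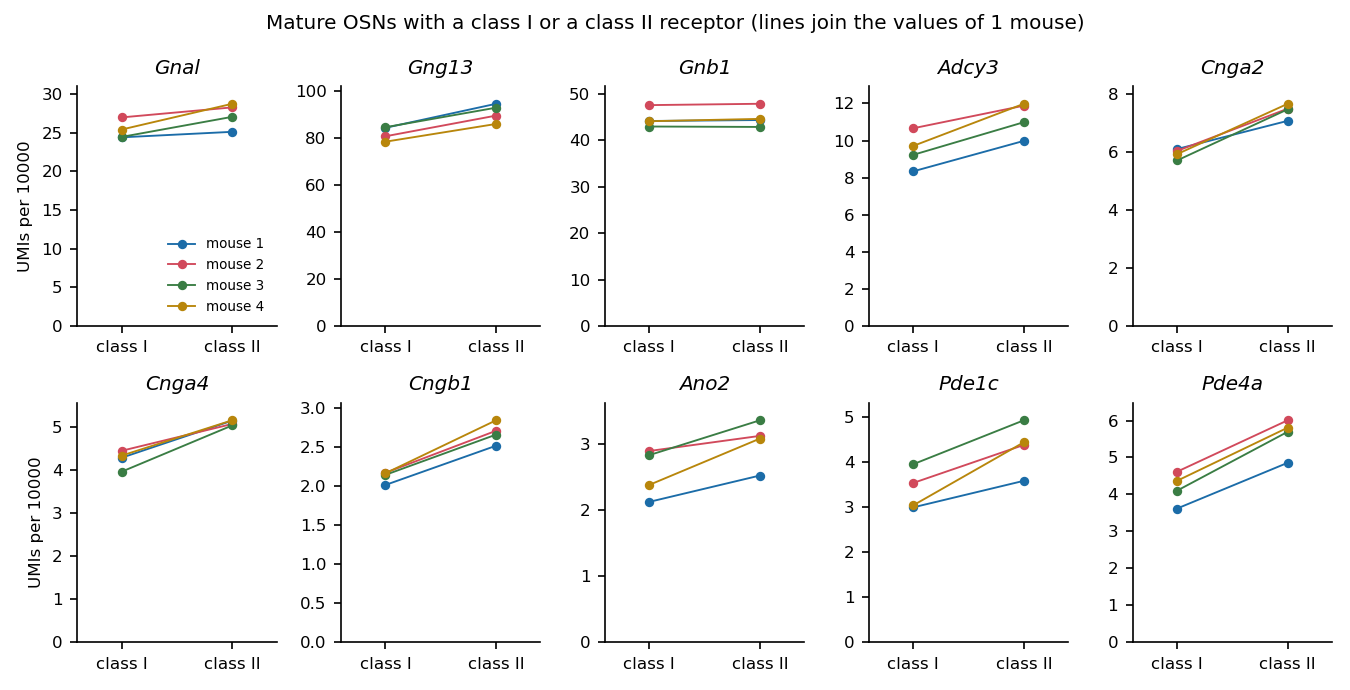
Level of each gene (y axis, UMIs per 10000, from 0) in mature OSNs with a class I or a class II receptor. Lines join the 2 values of each of the 4 mice. Relative to class II, class I is lowest for Pde4a, at a mean of 4.18 against 5.59, and the lines are nearly flat for Gnb1, from 44.7 to 44.96.

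Other transduction genes did not all follow the members. Of 16 that could be tested out of 33, 4 were lower in class I neurons, Stoml3, Ric8b, Rtp1 and Omp, and 5 were higher. Over all 10413 genes tested, 9.25% were called lower and 10.6% higher. The 3 largest differences among those called both here and among populations were Slc12a2, Calm2 and Stoml3. Slc12a2 was at 3.43, 5.14, 4.51 and 4.31 UMIs per 10000 in class I neurons and 2.61, 3.28, 3.23 and 3.26 in class II neurons (log2 0.54 ± 0.04, adjusted p = 2.72e-36), and Calm2 at 64.0 ± 2.15 and 48.4 ± 2.50 (log2 0.46 ± 0.02, adjusted p = 1.43e-66). Stoml3 was at 63.0 ± 4.76 and 86.6 ± 4.05 (log2 -0.41 ± 0.02, adjusted p = 1.91e-53). The mice of the classes did not overlap for these 3 genes, and the share of all genes with such a separation was not counted. Their class II neurons came from dorsal and ventral clusters. Values against dorsal class II neurons only, or without the block on the mouse, are not given for them.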

How the data were processed

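Per the labels and the study's methods, the authors aligned the reads of 4 libraries to GRCm38 with Cell Ranger 6.0.1 and an Ensembl annotation with redrawn 3′ ends of receptor genes. The deposited values are UMI counts that were not normalized, for each gene in each cell barcode. The authors assigned cell types, OSN clusters and receptor identities in Seurat, after removing immune, blood and damaged cells, and these were used as deposited. The merged table and the matrices had equal counts of the 10 members in all 21809 cells.

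Members and gene lists were chosen with earlier results of these data known. Levels are UMIs per 10000, summed per mouse. Populations had 20 or more neurons, with 1 sum for each mouse that held 3 or more and sums in at least 2 mice. Genes with a mean of 0.5 UMIs per sum or more entered the test among populations, and filterByExpr chose those of the class test. Sums were tested with edgeR 4.0.16 in R 4.3.3 (TMM, quasi-likelihood F test, Benjamini-Hochberg at 0.05), with the mouse as a block because sums of 1 mouse share its animal and library. DESeq2 1.42.0, other scalings and filters, no block, neurons thinned to 3000 UMIs, leaving out each mouse and leaving out the 4% of neurons with the most UMIs were alternatives. The tests were tried on simulated data. No doublet caller was run. Neurons with a second receptor above the authors' limit carry no identity. Depth limits genes with few UMIs, such as Cngb1 and Ano2. Members named among others were all 10, populations the 3 highest and 3 lowest of those with 5 or more neurons in each mouse, and other transduction genes the 3 largest changes called in both tests. Class I receptors were the Olfr genes of the cluster on chromosome 7. Some genes of the lists are not reported here. Positions came from GENCODE and promoters from RefSeq, both on GRCm38, and for Gnal no promoter was used here. Gnal, Ano2 and Pde1c overlap other annotated genes on their own strand, with which reads could be shared.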

Additional observations from a re-analysis of the deposited data

Results flagged for a closer look

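In 15 of 200 groups of 4 mice (a member in a cell type or OSN cluster), 1 mouse stood apart from the other 3 by Dixon's criterion, and chance flags about 1 in 20 groups. Levels are UMIs per 10000. In Mv1, mouse 2 was high for Gng13 (30.8, others 22.2 to 23.0), Gnb1 (13.3, others 3.15 to 4.63), Ano2 (0.181, others 0) and Pde4a (0.905, others 0 to 0.145). In HBC2, mouse 2 was high for Cnga2 (0.799, others 0.254 to 0.274), Ano2 (0.275, others 0.119 to 0.136) and Pde4a (0.826, others 0.306 to 0.350). The mature OSN markers Omp, Stoml3 and Rtp1 also summed highest in mouse 2 there, to 21.8 in Mv1 (others 0.581 to 8.54) and 14.8 in HBC2 (others 5.34 to 7.78), and their part in these values was not tested. Mouse 4 was high for Cnga2 in HBC1 (1.04, others 0.177 to 0.288), where the markers summed to 13.1 in that mouse and to 2.68 to 7.30 in the others.

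Within the neuronal lineage, mouse 2 was high for Gnb1 in iOSN2 (40.0, others 35.6 to 36.3) and for Pde1c in iOSN1 (0.828, others 0.653 to 0.667), and had 0 UMIs of Cnga2 in its 29 GBC (others 0.132 to 0.159). Among the clusters of mature OSNs, mouse 1 was low for Gnal in ventral Calb2+ neurons (28.3, others 32.1 to 32.7), for Ano2 (1.17, others 1.78 to 1.89) and Pde1c (2.03, others 2.83 to 2.87) in ventral Cd55+ neurons, and for Pde4a in dorsal Cd36+ neurons (2.75, others 4.11 to 4.25).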

How the results depend on the processing

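Among receptor populations all 10 members were called under each alternative that kept the 4 mice, and 9 to 10 when 1 mouse was left out, with Gnb1 lost without mouse 4. Between classes, 8 members were called without any one mouse, 9 with library size scaling, with no filter on low counts and after thinning to 3000 UMIs, 7 with DESeq2 (Ano2 lost, adjusted p = 0.0574, and the cause was not tested) and 6 against dorsal class II neurons. Gnal was called with library size scaling (log2 -0.11), with no filter (-0.09) and after thinning (-0.08). The log2 difference of Gnb1 reversed to -0.00576 where only the scaling differed, by library size. Cnga2, Cngb1 and Pde4a were called in all 12 fits, with log2 differences from -0.42 to -0.19. The median rho of population order between mice was 0.451 after thinning, which removes UMIs.

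Without the replicate block, 3 members were called between classes and 10 among populations. Without it Adcy3 (adjusted p = 0.185), Cnga4 (0.0797), Ano2 (0.263) and Pde1c (0.0539) were lost between classes besides Gng13, at log2 differences close to those with the block. Over all genes, 2012 of 7887 were called among populations, 1256 of 2494 with a stricter filter, 1119 after thinning, and 1349 to 1483 without 1 mouse. Between classes 19.8% of genes were called (2064), 20.5% with library size scaling, 8.56% with no filter, 12.7% after thinning (1107), 8.64% with DESeq2 (900), 6.97% against dorsal class II neurons (593), 8.27% without the block (861) and 14.4% to 16.8% without 1 mouse. The level of Cnga4 in mature OSNs, 4.99, was 5.18 as a mean over cells and 5.10 after thinning.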

Other observations

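Over all Mv2 cells, Slc12a2, the chloride-loading cotransporter, stood at 14.0, 17.1, 18.1 and 16.2 UMIs per 10000 in the 4 mice, against 2.73, 3.499, 3.38 and 3.37 in mature OSNs, without overlap. The calcium exchanger gene Slc24a4 stood at 0.530 ± 0.148 in Mv2 and 0.556 ± 0.0444 in mature OSNs (SD, n = 4), within the spread between mice. Ric8b stood at 0.315 ± 0.0484 in Mv2 and 7.35 ± 0.249 in mature OSNs. These values are a description of the deposited clusters and were not tested.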
